A study of Diospyros kaki with 21 samples.

Results

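The unigenes described here are those of 'Jingmianshi' persimmon (Diospyros kaki) whose best hit in the NR protein database names an enzyme of flavonoid and condensed tannin biosynthesis. A unigene is a transcript assembled from the reads, here without a genome. The rule took every unigene whose NR description contained any of 11 terms, from phenylalanine ammonia-lyase to flavonol synthase, and it found 112 of the 261970 unigenes listed. The rule uses no measured value. RNA had been sequenced from the flesh of mature fruit of this astringent cultivar in 7 groups of 3 libraries, labelled A, B and C. The groups were fruit given high CO2 together with 1-methylcyclopropene (CO2+1-MCP), fruit given high CO2 alone (CO2) and control fruit (CK), each at 1 d and at 4 d in storage, and control fruit at 0 d. The fruit had been held in air-tight containers for 1 d, the CK fruit too, and were then moved to air, so that the 1 d groups were taken at the end of the treatment and the 4 d groups 3 d later. 1-MCP blocks ethylene receptors. The libraries of a group are biological replicates, all from fruit of a single cultivar and orchard.

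Condensed tannins, also called proanthocyanidins, are chains of flavan-3-ols, and the soluble tannins of the flesh make astringent persimmons astringent. The chain of enzymes begins with phenylalanine ammonia-lyase (PAL) and cinnamate 4-hydroxylase (C4H). Chalcone synthase (CHS) and chalcone isomerase (CHI) then build the flavonoid skeleton, and flavanone 3-hydroxylase (F3H) oxidises it. Flavonoid 3'-hydroxylase (F3'H) and flavonoid 3',5'-hydroxylase (F3'5'H) set the hydroxyl groups on the B ring, flavonol synthase (FLS) leads off to the flavonols, and dihydroflavonol 4-reductase (DFR) makes the leucoanthocyanidins. These are turned into catechin by leucoanthocyanidin reductase (LAR), or into anthocyanidins by anthocyanidin synthase (ANS, also named leucoanthocyanidin dioxygenase) and then into epicatechin by anthocyanidin reductase (ANR). High CO2 is used to remove astringency from harvested fruit, because acetaldehyde formed without oxygen makes the tannins insoluble.

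By their NR names the 112 unigenes comprised 15 for PAL, 2 for C4H, 13 for CHS, 2 for CHI, 2 for F3H, 4 for F3'H, 10 for F3'5'H, 6 for FLS, 28 for DFR, 12 for ANS, 7 for LAR and 5 for ANR, with 4 flavonoid glycosyltransferases and 2 flavonoid methyltransferases. They carried 55 distinct NR descriptions, so that many of them may be pieces or variants of the same gene, between which shared reads are divided. Their lengths ran from 202 to 3976 bases, with 17 under 500 bases. The Swiss-Prot hit named the same enzyme for 94 of the 112. None of the 10 unigenes named F3'5'H in NR had such a Swiss-Prot name: the more abundant of them matched an Arabidopsis flavonoid 3'-monooxygenase or other cytochromes P450, and they are called F3'5'H-named below. Only 30 had a hit in Diospyros itself, among them all 7 LAR and all 5 ANR unigenes. They were assembled without a genome, and no chromosomal position is given here.

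Of the 112, 111 had at least 1 count, 46 reached a mean FPKM of 1 over the 21 libraries, and 57 had enough counts to be tested in at least 1 comparison. FPKM is the level of a unigene per length and per library depth. All members together took between 0.043% and 0.215% of a library's counts. Total counts per library ranged from 14644843 to 24943140. A single unigene outside the pathway, Cluster-16487.111793, took 1.4% to 5.4% of the counts in CO2 and CO2+1-MCP libraries, against 15.6% to 21.4% in CK libraries, and it lowers every other FPKM value of CK in that proportion; the tests below scale for it. Library B of CO2+1-MCP 4 d stood apart, with a rank correlation across unigenes of 0.701 with A and 0.667 with C, against 0.853 between A and C. The label of the tissue was checked by summed FPKM: 26 seed storage and oil body unigenes lay between 55.7 and 95.4, 72 chlorophyll-binding and Rubisco small subunit unigenes between 121 and 424, and 37 cuticle unigenes between 40.4 and 105. The 273 expansin and polygalacturonase unigenes, chosen for flesh, moved with the treatment, at 37700, 20000 and 12400 in CO2 4 d, against 6310, 7100 and 6270 in CK 4 d, and lay between 3920 and 10100 in the other groups. The label of the treatment was checked by pyruvate decarboxylase, whose summed FPKM at 1 d averaged 10300 in CO2+1-MCP and 7000 in CO2, against 353 in CK. In bulk flesh, fewer cells of a type and less RNA per cell cannot be told apart.

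Each comparison below is a test over all unigenes with enough counts, 3 libraries against 3, and a unigene is said to rise or fall where its p, adjusted over all of them, was below 0.05. At 4 d in storage, 12 of the 48 pathway unigenes tested rose in CO2 against CK and 0 fell, while 6.33% of all unigenes tested passed and 4.57% rose. Of the 48 tested, 11 passed with a change of more than 5-fold, as did 3.88% of all unigenes tested. At 1 d, 7 rose and 6 fell of 38 tested, when 40.6% of all unigenes passed and 20.9% rose. The median log2 fold change of the pathway unigenes tested was 1.01 at 4 d, against -0.08 over all unigenes, and 0.25 at 1 d, against -0.05. These figures draw on unigenes that reached the count filter only through the group in which they were high, among them the 6 without any count in CK 4 d. Of the 38 pathway unigenes tested at 4 d that also passed the filter among CK 4 d and CK 0 d libraries alone, 5 rose and 0 fell, with a median of 0.39, while 3.49% of all unigenes passing both filters rose, with a median of -0.14. Over the 8 comparisons, 25 of the 112 passed at least once.

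**Figure D1:**
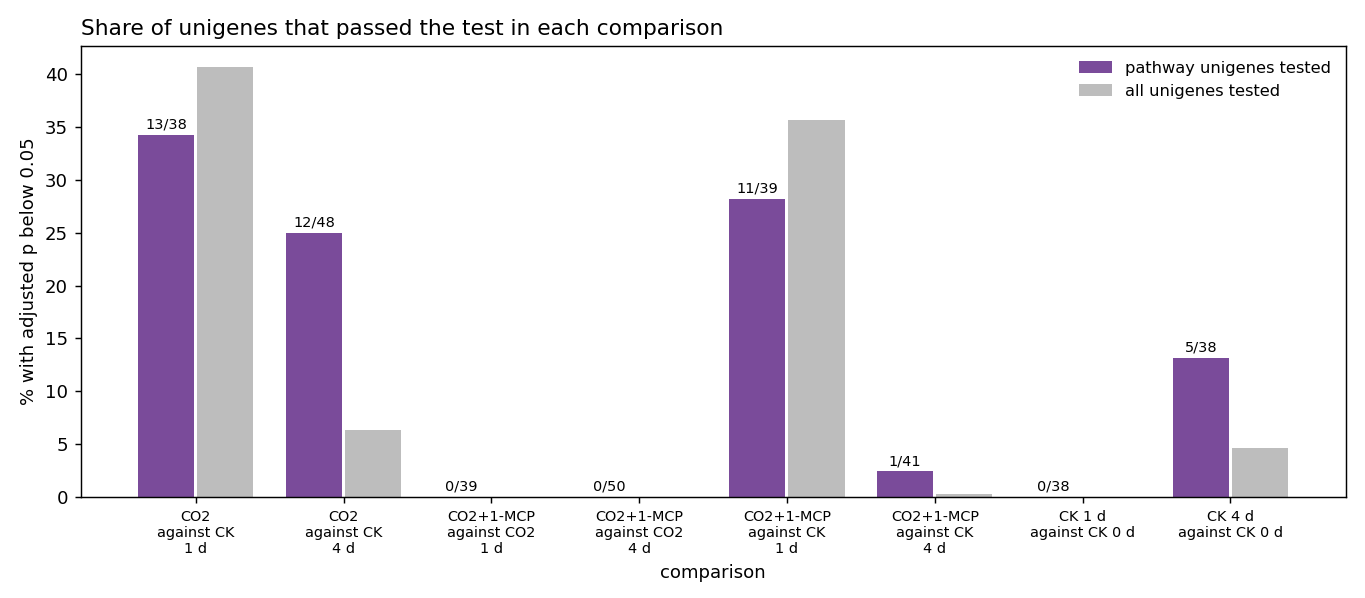
Share of unigenes with an adjusted p below 0.05 in each of the 8 comparisons, in percent of those tested, for the pathway unigenes (purple, with the number passing over the number tested) and for all unigenes (grey). In CO2 against CK at 4 d the share is 25.0% of the pathway unigenes and 6.33% of all unigenes, and at 1 d it is 34.2% and 40.6%.

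The first step of the pathway rose in CO2 fruit at 4 d. PAL makes cinnamate from phenylalanine and feeds lignin as well as flavonoids. Summed over its 15 unigenes, PAL reached 141, 50.01 and 50.13 FPKM in the libraries A, B and C of CO2 4 d, against 11.5, 11.3 and 10.9 FPKM in CK 4 d. Each CO2 library was above each CK library, and A was far above B and C. Cluster-16487.204488 had 36.46, 10.56 and 11.17 FPKM in CO2, against 0.35, 0.44 and 0.28 FPKM in CK, a log2 fold change of 5.97 ± 0.79 (SE, adjusted p = 0.0235). Cluster-16487.74303 had 25.64, 15.06 and 10.8 FPKM in CO2, against 3.43, 1.55 and 3 FPKM in CK (2.86 ± 0.53, adjusted p = 0.0366). The third PAL unigene that rose was Cluster-16487.204490, with few reads, at 5.38 ± 1.16 (adjusted p = 0.0472). The other 6 PAL unigenes tested did not pass in this fit. DESeq2 called 7 PAL unigenes higher, and the fit of all 7 groups called Cluster-16487.204487 (5.85 ± 1.68, adjusted p = 0.0397). Cluster-16487.74304 among them had 18.5, 6.66 and 8.09 FPKM in CO2, against 3.64, 2.9 and 3.89 FPKM in CK (1.84 ± 0.52, adjusted p = 0.0916). The 2 unigenes named C4H had too few reads to test, and the FPKM of 28.35 of Cluster-16487.161339 in library B of CO2 1 d was 1 count on 202 bases.

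The steps that build the flavonoid skeleton did not move together. None of the 4 CHS unigenes tested passed at 4 d in edgeR's test, 1 had an unadjusted p below 0.05, and DESeq2 called 3 of the 13 CHS unigenes higher. Cluster-16487.86908, a CHS unigene, had 162.84, 91.04 and 51.49 FPKM in CO2, against 77.06, 86.3 and 83.41 FPKM in CK, and the groups overlapped (0.49 ± 0.51, adjusted p = 0.609). The other abundant CHS unigene, Cluster-16487.93323, had 66.47, 83.95 and 69.5 FPKM in CO2, against 75.47, 80.52 and 78.65 FPKM in CK (-0.01 ± 0.20, adjusted p = 0.979). CHI, which closes the ring of the chalcone, had 3.87, 6.18 and 5.89 FPKM in CO2 in its abundant unigene Cluster-16487.156769, against 7.73, 9.41 and 7.77 FPKM in CK (-0.59 ± 0.25, adjusted p = 0.22). F3H rose: Cluster-16487.140083 had 158.12, 111.21 and 88.96 FPKM in CO2, against 39.64, 40.02 and 37.57 FPKM in CK (1.75 ± 0.35, adjusted p = 0.0412). Its other unigene, Cluster-16487.94667, had 34.91, 34.09 and 19.6 FPKM in CO2, against 15.35, 15.85 and 15.27 FPKM in CK, without overlap but without passing (1.06 ± 0.35, adjusted p = 0.126).

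At the branch to the flavonols, FLS rose. Cluster-16487.202792, the only FLS unigene with enough reads, had 66.43, 26.19 and 7.59 FPKM in CO2 4 d, against 1.75, 2.5 and 1.79 FPKM in CK 4 d. All CO2 libraries were above all CK libraries, and they differed among themselves by more than the lowest of them differed from CK. Its log2 fold change was 4.28 ± 0.91 (adjusted p = 0.0462). The B-ring hydroxylases did not pass at 4 d in edgeR's test of the 2 groups, with 0 of 3 F3'H and 0 of 4 F3'5'H-named unigenes called, 0 of them at an unadjusted p below 0.05 and 0 by DESeq2. The F3'5'H-named unigenes summed to 3.6, 32.33 and 24.42 FPKM in CO2, against 34.1, 36.16 and 39.3 FPKM in CK. Library A of CO2 was the lowest there, far below B and C. In the fit of all 7 groups the F3'H unigene Cluster-30471.0, which had too few counts here, was called higher (4.97 ± 1.42, adjusted p = 0.0392). The F3'H unigene Cluster-16487.22073 had 48.6, 20.76 and 5.21 FPKM in CO2, against 4.79, 9.3 and 12.79 FPKM in CK, with overlap (1.70 ± 0.87, adjusted p = 0.295). The F3'H unigene with a Diospyros hit, Cluster-16487.96907, had 1.45, 3.82 and 2.95 FPKM in CO2, against 3.02, 4.39 and 4.4 FPKM in CK.

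The largest differences among pathway unigenes at 4 d were in ANS, the enzyme that makes anthocyanidins. The 9 members described as leucoanthocyanidin dioxygenase summed to 633, 256 and 115 FPKM in CO2 4 d, against 0.12, 0 and 0 FPKM in CK 4 d. They had 24403 counts over the CO2 libraries and 2 counts over the CK libraries. 6 of them rose, and each of these 6 was without any count in CK 4 d, so that only a lower bound of the fold can be given, against a floor of 3 counts over the group. Cluster-16487.217779 had 243.1, 89.82 and 62.4 FPKM in CO2 and thus a level at least 3470-fold that of CK (adjusted p = 0.0253). Cluster-16487.217792 had 162.96, 93.09 and 17.64 FPKM and was at least 2540-fold higher (adjusted p = 0.0336). Cluster-16487.217793 had 129.25, 13.84 and 22.55 FPKM and was at least 589-fold higher (adjusted p = 0.0491). The bounds were 718-fold for Cluster-16487.217794, 539-fold for Cluster-16487.217790 and 121-fold for Cluster-16487.3063. Library A of CO2 was the highest in each of the 6, as it was for PAL, FLS and the expansin and polygalacturonase sum, whose part in these results was not tested. 7 of the 9 share a single NR description from kiwifruit, and reads may be divided between them. They were near 0 at the other times too: their sum averaged 0.837 FPKM in CO2 1 d, 0.797 FPKM in CK 1 d and 0.377 FPKM in CK 0 d. The unigenes with a persimmon ANS hit, Cluster-26900.0 and Cluster-23797.0, were at a mean of 0.423 and 0.114 FPKM over all libraries. The most abundant ANS unigene by FPKM, Cluster-16487.104345, was a fragment of 264 bases with 480 counts in all, and its Swiss-Prot hit was codeine O-demethylase; it had 57.08, 78.13 and 85.84 FPKM in CO2 4 d, against 29.69, 25.34 and 45.27 FPKM in CK 4 d (1.12 ± 0.48, adjusted p = 0.223).

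DFR, the step before ANS and LAR, did not pass. None of its 12 unigenes tested passed at 4 d in edgeR's test, 1 had an unadjusted p below 0.05, and DESeq2 called 1 lower. Summed over 28 unigenes, DFR stood at 137.6, 179 and 146.3 FPKM in CO2, against 146.2, 172.2 and 139.8 FPKM in CK. Much of that sum came from short unigenes: Cluster-16487.90769 of 280 bases had 50.93, 63.33 and 49.74 FPKM in CO2, against 48.22, 63.1 and 49.37 FPKM in CK, from 608 counts over all libraries. The DFR unigene with the most counts, Cluster-16487.59280, had 26.83, 25.81 and 19.28 FPKM in CO2, against 31.48, 36.24 and 25.69 FPKM in CK (-0.27 ± 0.30, adjusted p = 0.636), and its Swiss-Prot hit was a 3 beta-hydroxysteroid dehydrogenase.

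LAR rose and ANR did not pass. Cluster-16487.66536, a putative LAR of persimmon and the only LAR unigene with enough reads, had 118.21, 73.04 and 62.87 FPKM in CO2 4 d, against 6.56, 7.44 and 7.35 FPKM in CK 4 d. The groups were far apart, and the 3 CK libraries were close to each other. The log2 fold change was 3.72 ± 0.41 (adjusted p = 0.0215), the lowest adjusted p of any pathway unigene in this comparison. The ANR unigenes Cluster-16487.217634 and Cluster-16487.217635, both with persimmon hits, stood at 0.87 ± 0.34 (adjusted p = 0.19) and 0.97 ± 0.32 (adjusted p = 0.133). Cluster-16487.217635 had 4.42, 6.85 and 6.9 FPKM in CO2, against 2.75, 3.44 and 3.37 FPKM in CK. The glucosyltransferase unigene Cluster-16487.130854 had 5.1, 7 and 4.56 FPKM in CO2, against 2.66, 2.31 and 2.4 FPKM in CK (1.27 ± 0.31, adjusted p = 0.0617).

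**Figure D2:**
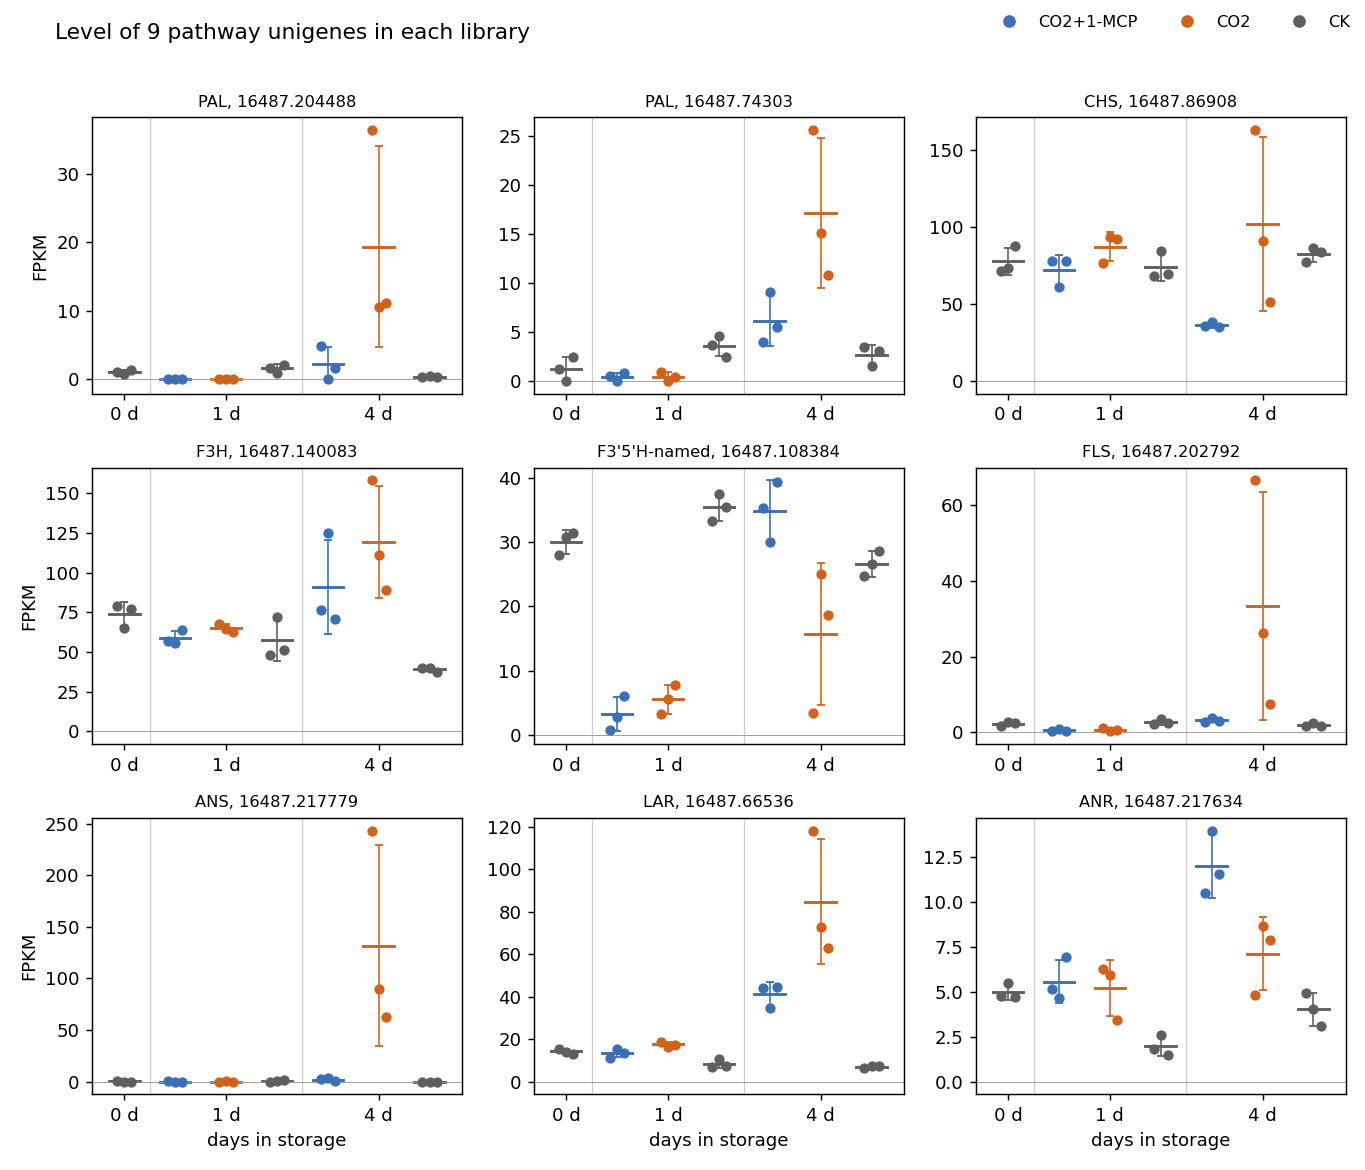
FPKM (vertical axis) of 9 pathway unigenes in every library, by days in storage; points are libraries, horizontal bars the means and vertical bars the SD of 3 libraries, in blue for CO2+1-MCP, orange for CO2 and grey for CK. The ANS unigene has 243.1, 89.82 and 62.4 FPKM in CO2 4 d and at most 3.09 FPKM in any library of another group, while the F3'5'H-named unigene is low in both CO2 treatments at 1 d.

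The number of calls at 4 d changed with the library left out. Without library A, B or C of CK or library B of CO2, 0 pathway unigenes passed, without library A of CO2 9 passed, and without library C of CO2 22 passed, 21 of them higher. The share of all unigenes passing in these smaller fits is not given here, and the cause was not tested. In a fit of all 7 groups together 15 were higher, with 5.72% of all unigenes higher, among them 11 of the 12 but not the PAL unigene Cluster-16487.74303, and DESeq2 called 24, with 8.12% of all. Without the filter on low counts 21 were higher, with 2.09% of all.

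**Figure D3:**
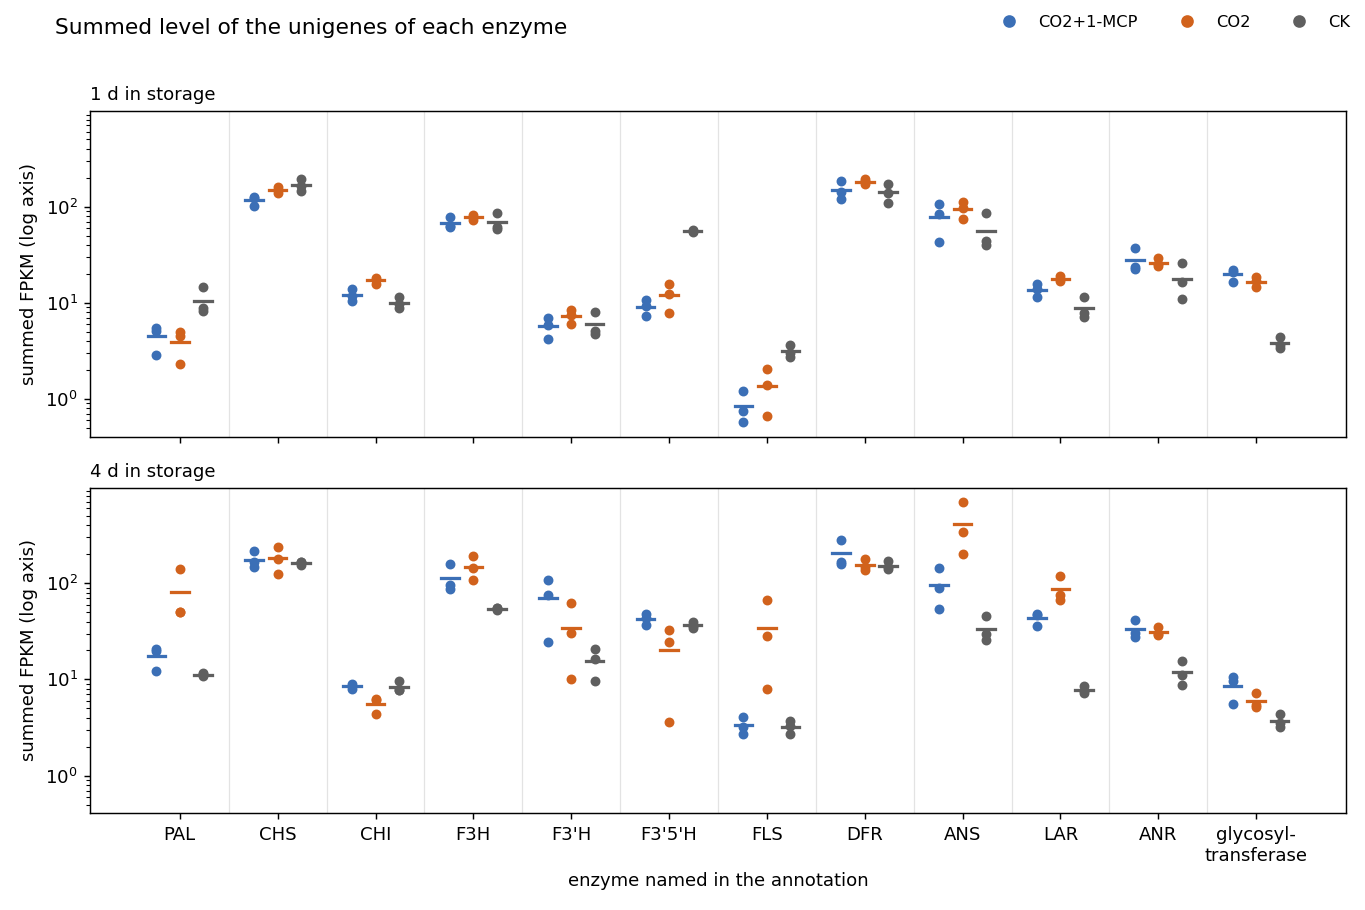
FPKM summed over the unigenes of each enzyme (vertical log axis) at 1 d (top) and 4 d (bottom); points are libraries and bars the means of 3 libraries, in blue for CO2+1-MCP, orange for CO2 and grey for CK. The F3'5'H-named sum is at 7.82 to 15.56 FPKM in CO2 1 d, against 54.26 to 56.63 FPKM in CK 1 d, and the PAL sum is at 50.01 to 141 FPKM in CO2 4 d, against 10.9 to 11.5 FPKM in CK 4 d.

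At 1 d, when the fruit left the CO2, 6 of 38 pathway unigenes tested were lower in CO2 than in CK. Of all 60190 unigenes tested, 11808 were lower. The pathway share passing in either direction, 34.2%, was below the 40.6% of all unigenes. The 6 were 3 F3'5'H-named, 1 PAL, 1 FLS and 1 CHS unigene. The F3'5'H-named unigenes fell most broadly. Summed over all 10, they stood at 7.82, 12.39 and 15.56 FPKM in CO2 1 d, against 56.63, 54.26 and 56.15 FPKM in CK 1 d. Cluster-16487.108384 had 3.29, 5.61 and 7.8 FPKM in CO2, against 33.38, 37.47 and 35.44 FPKM in CK (log2 fold change -2.76 ± 0.26, adjusted p = 0.000613). Every CO2 library was far below every CK library. Cluster-16487.105677 had 1.67, 2.24 and 2.49 FPKM in CO2, against 9.09, 7.93 and 7.43 FPKM in CK (-2.0 ± 0.19, adjusted p = 0.00064). Cluster-16487.91663 had 2.55, 4.19 and 4.75 FPKM in CO2, against 12.51, 8.57 and 12.53 FPKM in CK (-1.63 ± 0.26, adjusted p = 0.00398).

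PAL, FLS and a CHS unigene also fell at 1 d. The PAL unigene Cluster-16487.204488 had no count in any CO2 1 d library, against 1.65, 0.85 and 2.12 FPKM in CK 1 d, and was at least 60.9-fold lower (adjusted p = 0.00272, floor of 3 counts over the group). Cluster-16487.74303, the other PAL unigene that rose at 4 d, had 0.88, 0 and 0.36 FPKM in CO2, against 3.68, 4.59 and 2.44 FPKM in CK, without passing (-3.10 ± 1.08, adjusted p = 0.0595). The FLS unigene Cluster-16487.202792 had 1.21, 0.35 and 0.71 FPKM in CO2, against 2.27, 3.51 and 2.37 FPKM in CK (-1.85 ± 0.54, adjusted p = 0.0344). The groups did not overlap in any of these unigenes, and the share of all unigenes without overlap is not given here. The CHS unigene Cluster-16487.93323 had 60.67, 55.78 and 66.53 FPKM in CO2, against 75.27, 107.21 and 95.46 FPKM in CK, a small difference (-0.65 ± 0.17, adjusted p = 0.0215).

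CHI, DFR, LAR and ANR each had 1 unigene that rose at 1 d. CHI, in Cluster-16487.156769, had 18.11, 17.34 and 15.78 FPKM in CO2, against 8.6, 11.33 and 9.65 FPKM in CK (0.75 ± 0.20, adjusted p = 0.0227). The DFR unigene Cluster-16487.59280 had 65.47, 43.42 and 38.51 FPKM in CO2, against 25.71, 24.96 and 26.32 FPKM in CK (0.92 ± 0.28, adjusted p = 0.0369). LAR in Cluster-16487.66536 had 18.79, 16.45 and 17.3 FPKM in CO2, against 6.76, 10.88 and 7.62 FPKM in CK (1.01 ± 0.24, adjusted p = 0.015). The ANR unigene Cluster-16487.217634 had 6.28, 5.92 and 3.45 FPKM in CO2, against 1.84, 2.61 and 1.51 FPKM in CK (1.36 ± 0.44, adjusted p = 0.0464). ANR makes the epicatechin units of the tannin chain and LAR the catechin units. In each of these 4, listed because they passed, the groups did not overlap. The share of all unigenes without overlap is not given here.

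The other 3 were a glucosyltransferase, a methyltransferase and an F3'H unigene. The glucosyltransferase unigene Cluster-16487.130854 had 13.67, 15.47 and 16.8 FPKM in CO2, against 2.8, 3.03 and 2.39 FPKM in CK (2.42 ± 0.17, adjusted p = 0.000248), the lowest adjusted p of any pathway unigene at 1 d. The methyltransferase unigene Cluster-16487.195872 had 15.81, 15 and 6.6 FPKM in CO2, against 0, 0.14 and 0 FPKM in CK (adjusted p = 0.00208). These were 179 counts in CO2 and 1 count in CK, so that no fold change is given. The last of the 7 was Cluster-30471.0, an F3'H unigene with few reads, with 0.82, 0.86 and 1.11 FPKM in CO2, against 0.16, 0.08 and 0.03 FPKM in CK (3.21 ± 0.62, adjusted p = 0.00757). Of the 13 calls at 1 d, 9 were kept in the fit of all 7 groups, where 27.9% of all unigenes passed, and those of Cluster-16487.91663, FLS, CHS and Cluster-30471.0 were lost. Without library A or C of CK 1 d 8 passed, and without any other library 9 to 15. Leaving out any of the 6 libraries lost from 1 to 6 of the 13 calls, which were those of CHS, CHI, FLS, DFR, LAR and ANR, while PAL, the F3'5'H-named unigenes, the F3'H unigene, the glucosyltransferase and the methyltransferase passed each time.

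**Figure D4:**
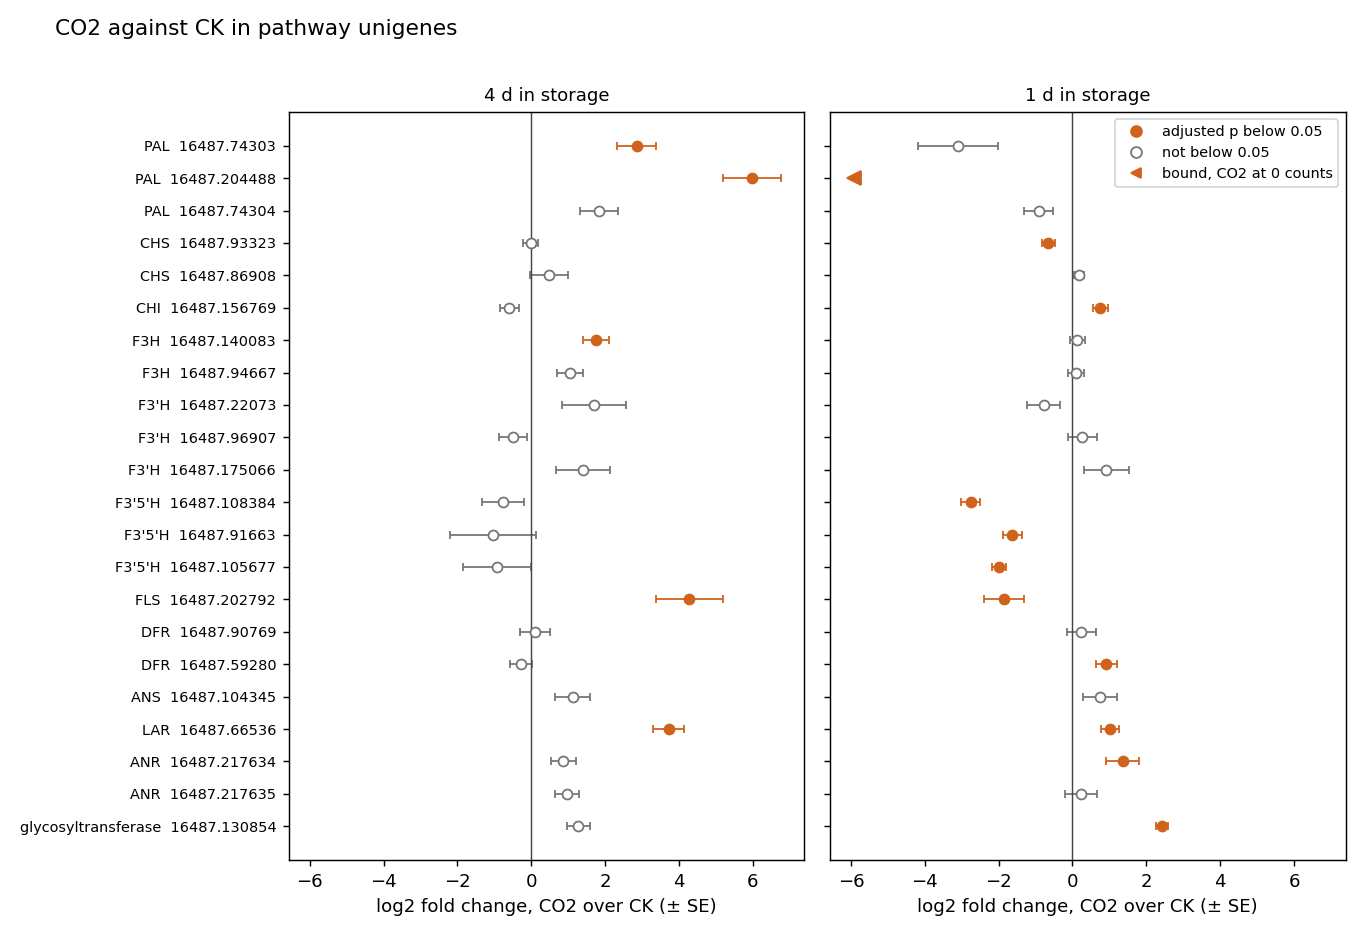
Log2 fold change of CO2 over CK (horizontal axis, with SE as bars) at 4 d (left) and at 1 d (right) in the 22 named pathway unigenes that were tested on both days; filled orange points have an adjusted p below 0.05, open points do not, and the triangle is the bound for a PAL unigene without counts in CO2 1 d. FLS stands at 4.28 at 4 d and at -1.85 at 1 d, while LAR stands at 3.72 at 4 d and at 1.01 at 1 d.

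The difference between the days was tested itself, as the change of CO2 against CK at 4 d less that at 1 d. It passed for 11 of 52 pathway unigenes, 9 with a higher and 2 with a lower value at 4 d, while 18.2% of all unigenes passed. FLS differed by 6.08 ± 1.12 (SE, adjusted p = 0.00409) and LAR by 2.65 ± 0.48 (adjusted p = 0.00391). F3H, which stood at 67.45, 64.57 and 62.55 FPKM in CO2 1 d, against 48.35, 72.21 and 51.25 FPKM in CK 1 d, differed by 1.56 ± 0.43 (adjusted p = 0.0293). All 3 stood higher relative to CK at 4 d. Among PAL unigenes, Cluster-16487.74303 differed by 5.90 ± 1.24 (adjusted p = 0.00828), Cluster-16487.74304 by 2.70 ± 0.68 (adjusted p = 0.0197), and Cluster-16487.204488, without counts in CO2 1 d, also passed (adjusted p = 0.000319). The ANS unigene Cluster-16487.217779 passed (adjusted p = 0.00148). It had 10512 counts in CO2 4 d and 0 in CK 4 d, and 4 in CO2 1 d and 49 in CK 1 d. The 2 lower values were those of CHI at -1.41 ± 0.31 (adjusted p = 0.00993) and of the glucosyltransferase Cluster-16487.130854 at -1.21 ± 0.34 (adjusted p = 0.0319). Neither of these 2 passed without the filter on low counts. Leaving out 1 library at a time gave 9 to 15 calls. F3H was then lost without library A, B or C of CK 4 d, B of CK 1 d, or B or C of CO2 1 d, Cluster-16487.74304 without library B of CK 4 d, and the glucosyltransferase whichever library of CK 1 d, CK 4 d or CO2 1 d was left out.

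The third treatment asks what blocking the ethylene receptors changed in CO2-treated fruit. At 4 d, 0 of 50 pathway unigenes passed in CO2+1-MCP against CO2 in edgeR's quasi-likelihood test, and 0% of all 62228 unigenes passed. At an unadjusted p below 0.05 there were 14 pathway unigenes, and 6.24% of all unigenes. In the fit of all 7 groups 6 were called lower and 0 higher, where 1.55% of all unigenes were lower, and DESeq2 called 7 lower, with 1.44% of all. Of these, 4 were shared. Without the filter on low counts 15 were called lower, with 0.959% of all. The 6 were the CHS unigene Cluster-16487.86908, FLS, LAR and the ANS unigenes Cluster-16487.217779, Cluster-16487.217793 and Cluster-16487.217792. Comparisons of CO2+1-MCP and of CK with CO2 use the same CO2 libraries, so that a value high in CO2 by chance enters both.

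ANS levels were low in CO2+1-MCP fruit at 4 d. The 9 members described as leucoanthocyanidin dioxygenase summed to 4.11, 4.66 and 2.82 FPKM in CO2+1-MCP, against 633, 256 and 115 FPKM in CO2, with 273 and 24403 counts over the groups. Cluster-16487.217779 had 2.04, 3.09 and 0.48 FPKM in CO2+1-MCP, against 243.1, 89.82 and 62.4 FPKM in CO2 (-6.35 ± 1.06, adjusted p = 0.166). No library of one group came near the other. Cluster-16487.217792 had 0.03, 0 and 1.64 FPKM in CO2+1-MCP, against 162.96, 93.09 and 17.64 FPKM in CO2 (-7.65 ± 1.81, adjusted p = 0.264). FLS had 2.7, 3.9 and 3.09 FPKM in CO2+1-MCP, against 66.43, 26.19 and 7.59 FPKM in CO2 (-3.63 ± 0.88, adjusted p = 0.276).

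LAR lay between the other groups at 4 d. Cluster-16487.66536 had 44.15, 34.77 and 44.62 FPKM in CO2+1-MCP, against 118.21, 73.04 and 62.87 FPKM in CO2 (-1.27 ± 0.38, adjusted p = 0.447) and 6.56, 7.44 and 7.35 FPKM in CK. The 3 groups did not overlap. PAL summed to 19.89, 12.25 and 20.81 FPKM in CO2+1-MCP, against 141, 50.01 and 50.13 FPKM in CO2. Its unigene Cluster-16487.204488 had 4.84, 0 and 1.65 FPKM in CO2+1-MCP, against 36.46, 10.56 and 11.17 FPKM in CO2 (-3.5 ± 1.48, adjusted p = 0.804).

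Other steps had other patterns, none of which passed. The CHS unigene Cluster-16487.86908 had 35.82, 38.37 and 34.87 FPKM in CO2+1-MCP, against 162.84, 91.04 and 51.49 FPKM in CO2 (-1.72 ± 0.52, adjusted p = 0.463). Cluster-16487.93323, the other abundant CHS unigene, had 127.31, 174.95 and 111.68 FPKM in CO2+1-MCP, against 66.47, 83.95 and 69.5 FPKM in CO2, on the other side (0.77 ± 0.33, adjusted p = 0.806). The summed CHS level did not show this. F3H overlapped between the groups, with 76.72, 124.89 and 70.63 FPKM in CO2+1-MCP, against 158.12, 111.21 and 88.96 FPKM in CO2 (-0.57 ± 0.44, adjusted p = 0.999). The F3'H unigene Cluster-16487.22073 had 57.7, 13.65 and 81.15 FPKM in CO2+1-MCP, against 48.6, 20.76 and 5.21 FPKM in CO2 (0.68 ± 0.91, adjusted p = 0.999). The low value of CO2+1-MCP was in library B, the one that stood apart. Without that library 0 pathway unigenes passed as well.

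At 1 d, 0 of 39 pathway unigenes passed in CO2+1-MCP against CO2 in edgeR's quasi-likelihood test, and 0% of all unigenes. At an unadjusted p below 0.05 there was 1, with 7.42% of all unigenes, and DESeq2 called 0, with 0.691% of all. CHI had 10.44, 11.74 and 13.76 FPKM in CO2+1-MCP, against 18.11, 17.34 and 15.78 FPKM in CO2, without overlap (-0.49 ± 0.21, adjusted p = 0.685). LAR had 11.34, 15.61 and 13.68 FPKM in CO2+1-MCP, against 18.79, 16.45 and 17.3 FPKM in CO2 (-0.34 ± 0.23, adjusted p = 0.824). The F3'5'H-named sum was 7.23, 9.38 and 10.82 FPKM in CO2+1-MCP, against 7.82, 12.39 and 15.56 FPKM in CO2, and the ranges overlapped.

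Set against CK, which is the same CK as above, CO2+1-MCP fruit at 1 d had 5 unigenes higher and 6 lower of 39 tested, when 35.6% of all unigenes passed. Lower were the PAL unigene Cluster-16487.204488, at least 64.9-fold (adjusted p = 0.00367), FLS (-2.28 ± 0.50, adjusted p = 0.0145), CHS in Cluster-16487.93323 (-1.10 ± 0.17, adjusted p = 0.00444) and 3 F3'5'H-named unigenes. Of these, Cluster-16487.108384 had 0.75, 2.84 and 6.04 FPKM in CO2+1-MCP, against 33.38, 37.47 and 35.44 FPKM in CK (-3.46 ± 0.65, adjusted p = 0.00822). Higher were DFR in Cluster-16487.59280 (0.86 ± 0.25, adjusted p = 0.037), ANR in Cluster-16487.217634 (1.5 ± 0.37, adjusted p = 0.0224), the glucosyltransferase Cluster-16487.130854 (2.81 ± 0.24, adjusted p = 0.00066), the F3'H unigene Cluster-30471.0 (3.37 ± 0.88, adjusted p = 0.0256) and the methyltransferase Cluster-16487.195872, with 161 counts in CO2+1-MCP and 1 in CK (adjusted p = 0.00279). CHI and LAR, which rose in CO2 1 d, stood at 0.30 ± 0.21 (adjusted p = 0.3) and 0.71 ± 0.26 (adjusted p = 0.0795) here. Without library A or B of CK 1 d 7 passed, and without any other library 8 to 10. Those of Cluster-16487.204488, Cluster-16487.93323, Cluster-16487.108384, the glucosyltransferase and the methyltransferase passed each time.

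At 4 d, CO2+1-MCP fruit had 1 unigene higher than CK and 0 lower of 41 tested, when 0.303% of all unigenes passed. It was LAR, at 2.38 ± 0.18 (adjusted p = 0.0182). Next to it the CHS unigene Cluster-16487.86908 had 35.82, 38.37 and 34.87 FPKM in CO2+1-MCP, against 77.06, 86.3 and 83.41 FPKM in CK, without overlap (-1.32, adjusted p = 0.0504). Without library B of CO2+1-MCP 8 unigenes passed, 6 of them higher, and LAR was among them. Without any other library 0 passed. The fit of all 7 groups called 3, with 1.73% of all unigenes, and DESeq2 called 7, with 2.33% of all.

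CK fruit were also compared between days. Their first day was spent in air-tight containers, which cannot be told apart from time in storage. At 1 d against 0 d, 0 of 38 passed in edgeR's test, where 0.068% of all unigenes passed, with 8 at an unadjusted p below 0.05 (14.4% of all) and 3 called higher by DESeq2 (3.9% of all). At 4 d against 0 d, 3 rose and 2 fell of 38 tested, which were 13.2%, where 4.66% of all unigenes passed. LAR had 15.36, 14.17 and 13.14 FPKM at 0 d, 6.76, 10.88 and 7.62 FPKM at 1 d and 6.56, 7.44 and 7.35 FPKM at 4 d (-1.07 ± 0.13 at 4 d against 0 d, adjusted p = 0.0139). F3H in Cluster-16487.140083 had 79.27, 65.4 and 77.17 FPKM at 0 d, 48.35, 72.21 and 51.25 FPKM at 1 d and 39.64, 40.02 and 37.57 FPKM at 4 d (-1.0 ± 0.10, adjusted p = 0.00989). These CK 4 d levels are also the ones that CO2 4 d was set against above. The unigenes that rose were PAL in Cluster-16487.74304 (1.12 ± 0.21, adjusted p = 0.037) and F3'H in Cluster-16487.22073 (2.27 ± 0.44, adjusted p = 0.0425) and Cluster-16487.175066 (2.0 ± 0.35, adjusted p = 0.0318). Each of the 5 calls was lost in the fit of all 7 groups, where 0.831% of all unigenes passed, and without library A, B or C of CK 4 d 0 passed. Without library A, B or C of CK 0 d 2, 1 and 2 passed.

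Other genes of the pathway, found by NR names outside the 11 terms, were counted in the same fits. 4-coumarate:CoA ligase (4CL) activates the coumarate made by C4H, for flavonoids and lignin. Of 25 4CL unigenes tested in CO2 against CK at 4 d, 7 rose and 0 fell, against 6.33% of all unigenes passing, and of 24 tested at 1 d, 1 rose and 7 fell, against 40.6% of all. The 4CL unigene Cluster-16487.117861 had 250.9, 134 and 101.75 FPKM in CO2 4 d, against 19.1, 19.99 and 20.75 FPKM in CK 4 d (3.19 ± 0.49, adjusted p = 0.0267). At 1 d it had 9.65, 11.76 and 12.14 FPKM in CO2, against 17.08, 28.22 and 19.53 FPKM in CK (-1.01 ± 0.21, adjusted p = 0.00939). It fell first and then stood far above CK, and in CO2+1-MCP 4 d it had 64.41, 39.52 and 58.02 FPKM. C4H under its other name, trans-cinnamate 4-monooxygenase, was more abundant than the 2 unigenes named C4H. Its unigene Cluster-16487.96778 had 41.14, 34.99 and 45.9 FPKM in CO2 1 d, against 7.48, 11.51 and 12.23 FPKM in CK 1 d (1.92 ± 0.22, adjusted p = 0.00128). At 4 d it had 4.67, 7.12 and 19.26 FPKM in CO2, against 5.87, 7.15 and 5.99 FPKM in CK, with overlap (0.68 ± 0.42, adjusted p = 0.392).

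Of 42 unigenes with a Diospyros MYB hit, 23 had enough counts to be tested in CO2 against CK at 1 d and 8 at 4 d. Of the 23, 7 also passed the filter among CK libraries alone, and of these 2 rose and 0 fell. Among all unigenes passing both filters, 14.3% rose. R2R3-MYB proteins regulate many plant genes, those of tannin synthesis among them. The MYB10 unigene Cluster-16487.188152 had 74.89, 57.48 and 80.51 FPKM in CO2 1 d, against 0.37, 0.25 and 0.05 FPKM in CK 1 d (8.27 ± 0.50, adjusted p = 0.000143). These were 3137 counts in CO2 and 11 in CK, so that it reached the count filter through its CO2 libraries. In CO2+1-MCP 1 d this unigene had 7.51, 7.7 and 41.78 FPKM. It was back at 0.24, 0.18 and 0.14 FPKM in CO2 4 d. A small R3-type MYB, Cluster-16487.44794, had 13.19, 13.15 and 11.32 FPKM in CO2 4 d, against 35.85, 44.78 and 33.39 FPKM in CK 4 d (-1.5 ± 0.28, adjusted p = 0.0373). At 1 d this R3-type MYB was higher in CO2 than in CK (0.97 ± 0.32, adjusted p = 0.0478). Its difference between days passed (-2.53 ± 0.45, adjusted p = 0.00347).

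Gallate, which decorates persimmon tannin, comes from the shikimate pathway. Of 20 shikimate dehydrogenase unigenes tested at 4 d, 0 rose and 1 fell in CO2 against CK, and of 13 tested at 1 d, 0 rose and 4 fell, which were 5.0% and 30.8%, below the 6.33% and 40.6% of all unigenes. The unigene named gallate 1-beta-glucosyltransferase, Cluster-16487.136761, had 19.01, 21.99 and 9.97 FPKM in CO2 4 d, against 4.72, 5.39 and 4.67 FPKM in CK 4 d, without passing (1.91 ± 0.43, adjusted p = 0.0523). At 1 d it had 5.95, 4.08 and 4.65 FPKM in CO2, against 11.72, 10.85 and 9.39 FPKM in CK (-1.15 ± 0.29, adjusted p = 0.0212). None of the 4 unigenes named for TT12 or MATE transport had enough counts to test in this comparison. In CO2 against CK at 4 d, 12 of 48 flavonoid unigenes rose, with a median log2 fold change of 1.01. In the lignin branch, the other outlet of PAL, 15 of 83 rose and 3 fell, with a median of -0.02. Over all unigenes 4.57% rose, with a median of -0.08. The flavonoid figures draw on unigenes that reached the count filter only through CO2 4 d. Of the 38 that also passed it among CK libraries alone, 5 rose, with a median of 0.39. The lignin branch was not filtered in that way, so the 2 medians are not on a like footing. At 1 d, 22 of 84 lignin unigenes rose and 7 fell, which were 34.5%, below the 40.6% of all unigenes.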

How the data were processed

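RNA-seq libraries of persimmon flesh, 3 for each of 7 groups, had been sequenced paired-end on an Illumina HiSeq and assembled with Trinity into unigenes without a genome, so that no build or coordinates are used here. The authors deposited for each unigene the expected counts of reads, estimated by RSEM (named in the submitters' processing notes, version not given in the sources used here), and FPKM values, which scale the counts by length and library depth. Between 24.5% and 37.6% of the counts in a library were not whole, because reads shared by similar unigenes are divided, and counts were rounded before testing. Levels are the deposited FPKM.

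Each comparison of 2 groups was fitted with edgeR 4.0.16 in R 4.3.3 (quasi-likelihood F test, TMM factors, filterByExpr), with p adjusted by Benjamini-Hochberg over all unigenes tested, and the threshold was 0.05. The SE of a log2 fold change was derived from the fold change and its F value. The difference between days was a contrast in a fit of 4 groups. A group without counts was given a floor of 3 counts, which covers counting error only. Alternatives were DESeq2 1.42.0, its size factors in edgeR, no low-count filter, a joint fit of the 7 groups, the library letter as a block, and leaving out each library. The code was also run on counts simulated with less spread between libraries than these data have. That run does not measure its error rates here.

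The pathway unigenes and all lists were chosen with earlier results of these data known. Enzyme classes follow NR names, and the class of methyltransferases was added after the table was seen. Named are the 3 unigenes of each class with the highest mean FPKM, if at least 1, per comparison the 5 highest and 5 lowest fold changes among calls whose mean FPKM reached 5 in a group, unigenes with a Diospyros hit and a mean FPKM of at least 5, and the 3 lowest adjusted p for the difference between days. Others were named because they passed or, for genes outside the pathway list, after their values were seen.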

Additional observations from a re-analysis of the deposited data

Results flagged for a closer look

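For 9 of the named unigenes the change of CO2 against CK differed between 4 d and 1 d. The test was edgeR's quasi-likelihood test of that difference, adjusted over all unigenes tested. In it 21.2% of the 52 pathway unigenes tested passed, close to the 18.2% of all unigenes. A low adjusted p in this same test was among the grounds for naming Cluster-16487.204488, Cluster-16487.217779 and Cluster-16487.66536. Each of them was also named by its class. Values are log2 differences, 4 d less 1 d, with SE. In PAL they were 5.90 ± 1.24 for Cluster-16487.74303 (adjusted p = 0.00828), 2.70 ± 0.68 for Cluster-16487.74304 (adjusted p = 0.0197) and 15.17 ± 1.44 for Cluster-16487.204488 (adjusted p = 0.000319). In ANS the value was 18.09 ± 2.41 for Cluster-16487.217779 (adjusted p = 0.00148). The size of these last 2 values depends on the prior count of the fit, because Cluster-16487.204488 had no counts in CO2 1 d and Cluster-16487.217779 had none in CK 4 d. The other positive values were 6.08 ± 1.12 for FLS in Cluster-16487.202792 (adjusted p = 0.00409), 2.65 ± 0.48 for LAR in Cluster-16487.66536 (adjusted p = 0.00391) and 1.56 ± 0.43 for F3H in Cluster-16487.140083 (adjusted p = 0.0293). Negative values were found for CHI in Cluster-16487.156769, at -1.41 ± 0.31 (adjusted p = 0.00993), and for the glucosyltransferase Cluster-16487.130854, at -1.21 ± 0.34 (adjusted p = 0.0319). The last of these was lost when library A, B or C of CK was left out on either day, or any library of CO2 1 d. Neither negative value passed without the filter on low counts, where 11 pathway unigenes were higher and 0 lower.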

How the results depend on the processing

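No named unigene changed direction while passing in any alternative. With DESeq2, 24 pathway unigenes passed in CO2 against CK at 4 d, 7 in CO2+1-MCP against CO2 at 4 d, 7 in CO2+1-MCP against CK at 4 d and 3 in CK 1 d against CK 0 d. Without the filter on low counts these were 21 in CO2 against CK at 4 d (2.74% of all unigenes passed), 15 in CO2+1-MCP against CO2 at 4 d (1.24%), 3 in CO2+1-MCP against CK at 4 d (0.32%) and 1 in CO2+1-MCP against CO2 at 1 d (0.624%). For the difference between days there were 11 without that filter, all of them higher, where 4.93% of all unigenes passed. The joint fit of all 7 groups gave 6 in CO2+1-MCP against CO2 at 4 d, 3 in CO2+1-MCP against CK at 4 d and 0 in CK 4 d against CK 0 d. Leaving out 1 library at a time gave 8 to 15 calls in CO2 against CK at 1 d and 0 to 22 at 4 d, 7 to 10 in CO2+1-MCP against CK at 1 d and 0 to 8 at 4 d, 0 to 2 in CK 4 d against CK 0 d, 9 to 15 for the difference between days, and 0 in CO2+1-MCP against CO2 on both days and in CK 1 d against CK 0 d. Each such fit is smaller by 1 library, the share of all unigenes passing in it is not given here, and no cause was tested.

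In no comparison did the deviations of same-lettered libraries correlate above 0.1 for all 3 letters. They correlated at 0.109 or less, except in CO2+1-MCP against CO2 at 4 d. There the values were 0.355 for B, 0.292 for C and 0.005 for A, and their origin was not tested. With the letter as a replicate block, 6 pathway unigenes passed in CO2 against CK at 1 d (24.7% of all unigenes passed) and 0 at 4 d, 7 in CO2+1-MCP against CK at 1 d (20.6%) and 0 at 4 d, and 0 in CK 4 d against CK 0 d. In the comparisons where 0 pathway unigenes passed, 0 of all unigenes passed under the block, and the cause was not tested. Of some ANS unigenes as few as 8 counts were found in CO2+1-MCP 4 d, which limits the precision of their values.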
